A study of Arabidopsis thaliana with 22 samples.

Results

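The auxin response factor (ARF) genes examined were 10 named loci out of 27444 protein-coding nuclear genes of Arabidopsis thaliana. They were AT5G62000 (ARF2), AT2G33860 (ETT, also called ARF3), AT5G60450 (ARF4), AT1G19850 (MP, also called ARF5), AT1G30330 (ARF6), AT5G20730 (ARF7), AT5G37020 (ARF8), AT2G28350 (ARF10), AT4G30080 (ARF16) and AT1G77850 (ARF17). The rule that picks them lists loci and uses no measured value. All 10 matched a locus of the gene table used.

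ARFs are transcription factors that bind auxin response elements in promoters. Where auxin is low, Aux/IAA proteins bind the activating ARFs and bring in corepressors of the TOPLESS family. Auxin joins the Aux/IAA proteins to TIR1/AFB receptors, which leads to their breakdown and frees the ARFs. Several ARF transcripts are also cut by small RNAs: ARF6 and ARF8 by miR167, ARF10, ARF16 and ARF17 by miR160, and ARF2, ETT and ARF4 by trans-acting siRNAs made from TAS3 transcripts with the help of miR390. At the shoot apex MP is required for the start of flower primordia, and ETT and ARF4 take part in organ polarity.

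Chromatin immunoprecipitation with sequencing had mapped H3K4me3, which sits at the 5' ends of genes that are transcribed, and H3K27me3, the mark laid down by Polycomb complexes on repressed genes. There were 4 stages with 2 biological replicates each, which gave 8 libraries per mark. The untreated apex (apex t0) was the cauliflower-like inflorescence of the ap1 cal double mutant with a 35S::AP1-GR transgene, dissected away from leaf and pedicel, and apex t2 was the same tissue 2 days after 10 µM dexamethasone, given in a solution that also held Silvet. The inflorescence samples were main inflorescences of wild-type plants without flowers older than stage 12, and the leaf samples were wild-type rosette leaves taken at flowering. All lines were in the Landsberg erecta background. The 35S promoter drives the AP1-GR fusion broadly rather than only where AP1 is normally made, and both apex stages carry the ap1 and cal mutations and the transgene. Genotype and tissue therefore cannot be told apart in any comparison of an apex with leaf or with the inflorescence.

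The deposited tables list islands, stretches of enriched windows called separately in each library. A gene was called marked where 200 bp or more of its body lay under islands, and its level was the island reads in the body in RPM, that is, per 1000000 island reads falling on the genes tested. A missing island means enrichment below the authors' threshold, not a measured zero. Islands held 6635471 to 23673881 reads per H3K4me3 library and 3779918 to 19379225 per H3K27me3 library, and replicate 1 was the shallower in each stage. The meristem markers STM, KNAT1, KNAT2, CUC2 and ANT carried H3K4me3 in both libraries of each apex stage in 5 of 5 cases, in the inflorescence in 4 of 5 (CUC2 was without an island) and in leaf in 0 of 5. Photosynthesis markers carried H3K4me3 in both apex t0 libraries in 6 of 6 cases and in both leaf libraries in 6 of 6, although RBCS1B and RBCS3B were called lower in apex t0. Floral organ identity genes carried it in both libraries in 0 of 6 cases in apex t0, 4 in apex t2, 5 in the inflorescence and 0 in leaf, and pollen and tapetum genes in 1, 2, 1 and 0 of 5. Root and embryo markers had no H3K4me3 island in any library.

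H3K4me3 islands lay over part of the body of nearly all ARF genes at each stage, and H3K27me3 was nearly missing from these genes. Both replicates showed H3K4me3 on 10 of 10 ARF genes at each of the 3 stages other than leaf, and on 9 of 10 in leaf. Over all genes the shares were 60.2% in apex t0, 60.4% in apex t2, 58.8% in the inflorescence and 57.0% in leaf. H3K27me3 marked 0 of 10 in apex t0, apex t2 and the inflorescence and 1 of 10 in leaf, where all genes stood at 28.7%, 28.7%, 26.0% and 24.1% in the order apex t0, apex t2, inflorescence, leaf. MP was the exception on both counts: it was the ARF gene without H3K4me3 and with H3K27me3 in leaf. Of the 80 pairs of an ARF gene and a replicate of a stage, 78 had H3K4me3 islands in the body, 2 had H3K27me3 islands, and 0 had bases under islands of both marks.

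MP (MONOPTEROS) is the activating ARF best known for vascular, embryo and flower initiation. Its body held 128.5 and 142.8 RPM of H3K4me3 in apex t0, 153.1 and 166 RPM in apex t2, 21.9 and 74.28 RPM in the inflorescence, and no island in either leaf library. The apices were high, the inflorescence lay below both apices without overlap, and leaf had no listed enrichment. Leaf replicate 1 was the shallowest H3K4me3 library, with 6635471 island reads, and leaf replicate 2 the deepest, with 23673881. The smallest islands listed in them held 43 and 108 reads.

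The islands behind these values lay in 1 block at the lower-numbered end of the gene on chromosome 1 (TAIR10, 1-based). In apex t0 they ran from 6886801 to 6889600 with 1324 reads and from 6886601 to 6889600 with 2994 reads. In apex t2 they ran from 6886801 to 6889600 with 2183 reads and from 6886801 to 6890000 with 3211 reads. In the inflorescence they were 1200 bp long with 173 reads in replicate 1 and 2000 bp long with 1199 reads in replicate 2. The authors' fold over control was 3.409 and 3.544 in apex t0, 4.11 and 2.812 in apex t2, and 1.643 and 1.715 in the inflorescence. The inflorescence islands were among the weakest of their libraries, at the 0.8 and 8.3 percentiles of fold, whereas in the apices MP stood between the 24.3 and 37.2 percentiles.

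MP was the single ARF gene called for H3K4me3 in apex t0 against leaf, higher in apex t0 (limma, Benjamini-Hochberg adjusted p = 0.00307), and 3.8% of the 17588 genes tested were called higher and 4.25% lower. It was also called higher in the inflorescence against leaf (limma, adjusted p = 0.00869; 2.15% of genes called higher, 1.93% lower). No fold is given against leaf, which had no island. MP entered the test through the stages other than leaf, so the direction of both differences from leaf was fixed by the filter on genes and is not evidence of its own. In the inflorescence against apex t2 the MP level differed by -1.95 ± 0.54 on the log2 scale (SE), which did not pass the threshold (limma, adjusted p = 0.312; 0.751% of genes called higher, 0.415% lower). It moved with single libraries and was -1.09 ± 0.25 without inflorescence replicate 1 (adjusted p = 0.297) and -2.81 ± 0.33 without inflorescence replicate 2 (adjusted p = 0.0605). In apex t2 against apex t0 the difference was 0.23 ± 0.54 (adjusted p = 1).

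The call in the inflorescence against leaf depended more on the settings. It was lost when the weak islands were left out by asking for an authors' fold of 2 or more, when the 4 libraries were fitted alone (adjusted p = 0.282), and when apex t2 replicate 1 or replicate 2 was left out of the shared spread (adjusted p = 0.0515 and 0.0572). With islands of fold 2 or more MP had no inflorescence island and was called lower in the inflorescence against apex t2 (adjusted p = 0.0207). The call in apex t0 against leaf held under each of the 9 alternatives without a single library left out (limma, adjusted p between 0.00265 and 0.0387). All of them kept leaf without an island, which added no replicate spread. That the call held is therefore not evidence of its own.

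H3K27me3 at MP lay beside the H3K4me3 block and reached into the gene only in leaf. Neither apex stage had a listed H3K27me3 island within 1 kb of MP in any of its libraries. In the inflorescence the islands stopped short of the gene body. They ran from 6885001 to 6886200 with 90 reads and from 6883601 to 6886200 with 1045 reads. The leaf islands ran from 6883401 to 6887000 with 900 reads and from 6883401 to 6887200 with 2327 reads, which put 332 and 532 bp of the body under the mark. H3K27me3 near the gene was thus absent from the tables in the apices, shorter in the inflorescence and longest in leaf, and H3K4me3 over the gene was longest in the apices, shorter in the inflorescence and absent from the tables in leaf. Summed H3K27me3 of the 5 meristem markers moved the same way, at 850 and 621 RPM in apex t0, 810 and 568 RPM in apex t2, 1500 and 1240 RPM in the inflorescence, and 2090 and 1790 RPM in leaf. The sum did not hold for each marker. CUC2 was the 1 of 5 that was not lower in apex t0 against leaf (0.002 ± 0.383). Unlike MP, 3 of the 5 carried H3K27me3 in the body in all 8 libraries. Of these markers ANT was called lower in apex t0 against leaf (limma, adjusted p = 0.00261). ANT had no H3K27me3 island in the body in the apices, so this direction was fixed by the filter. The part of the meristem markers in the MP result was not tested.

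MP was the only ARF gene that could be tested for H3K27me3. It passed the filter on the gene body through leaf alone, with no body island in the other 6 libraries. A lower value against leaf was therefore fixed by the filter. The size depended on the pseudocount: apex t0 against leaf was -5.13 on the log2 scale with 1 and -3.25 with 4. Stages without a body island added no replicate spread, so the p-values below are not evidence of their own. MP was called lower in apex t0 against leaf (limma, adjusted p = 0.00193), where 4.0% of the 8623 genes tested were called lower. It was also called lower in the inflorescence against leaf (limma, adjusted p = 0.00224), where 1.61% were called lower. With 1 kb on either side of the body counted in, the inflorescence against leaf no longer passed (-2.35 ± 0.57, adjusted p = 0.123; 1.56% of genes called lower). In that window the inflorescence was called higher than apex t2 (adjusted p = 0.0404; 1.46% of genes called higher), from the islands that flank the gene, with no island in apex t2 and the direction again fixed by the filter. The body test against leaf in the inflorescence was also lost when those 4 libraries were fitted alone (adjusted p = 0.337). MP had no test where 600 bp of overlap was required, since the leaf islands cover less of the body than that.

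**Figure D1:**
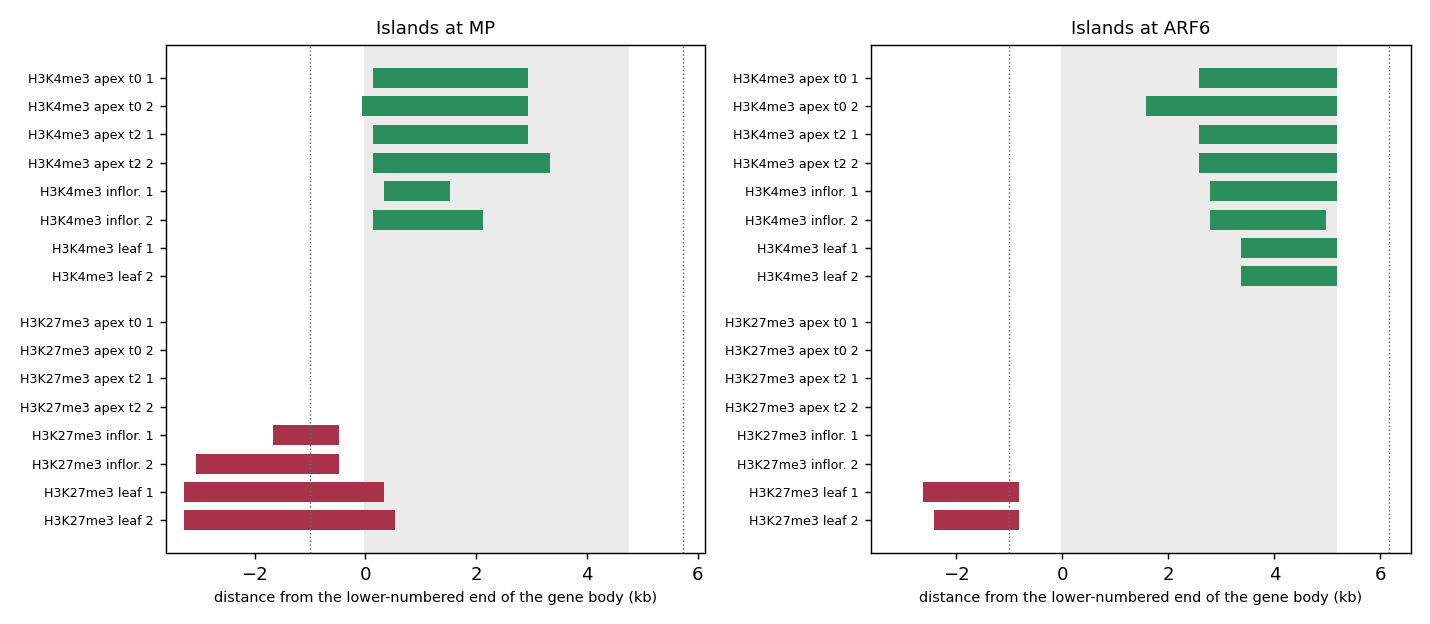
Islands at MP and ARF6 in the 16 libraries, drawn to scale as distance in kb from the lower-numbered end of the gene body (grey), with dotted lines 1 kb outside it; green bars are H3K4me3 islands, red bars H3K27me3 islands, 1 row per library. At MP the H3K4me3 islands are long in the apices, 1200 and 2000 bp in the inflorescence and missing in leaf, while H3K27me3 islands appear in the inflorescence and leaf rows and enter the body in the leaf rows.

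Meristem markers, taken as a sum, moved with MP. The summed H3K4me3 of the 5 markers was 413 and 488 RPM in apex t0, 440 and 464 RPM in apex t2, 151 and 252 RPM in the inflorescence and 0 in both leaf libraries, where all 5 were without an island. All 5 were called higher in apex t0 against leaf. They passed the filter through the other stages alone, which fixed these directions. Of 17578 tested genes outside the ARF list, the 3 whose H3K4me3 followed MP most closely over the 8 libraries were AT5G07800 (Pearson r = 0.9989), AN3, a growth coactivator of leaf and shoot primordia (r = 0.9984), and the meristem gene STM (r = 0.9981). A total of 309 genes had an r above 0.95. MP had no leaf island and its stage means spanned 7.33 on the log2 scale, so that step largely set r. The 3 genes were picked as the highest in these same data, so their r is not evidence of a shared control. These libraries come from whole tissues, in which fewer cells with the mark and less mark per cell cannot be told apart, and the part of tissue composition in the MP result was not tested.

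The other activating ARFs were marked by H3K4me3 in all 8 libraries. ARF6, which acts with ARF8 in flower maturation, held 151.1 and 180.9 RPM in apex t0, 158.3 and 148.2 RPM in apex t2, 152.6 and 152.7 RPM in the inflorescence, and 126.7 and 109.1 RPM in leaf. Both leaf libraries lay below the other 6. The difference was 0.49 ± 0.16 in apex t0 against leaf (limma, adjusted p = 0.129) and 0.37 ± 0.16 in the inflorescence against leaf (adjusted p = 0.358), neither past the threshold.

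ARF6 islands were also shorter in leaf. They covered 2588 and 3588 bp of the body in apex t0, 2588 bp in both apex t2 libraries, 2388 and 2200 bp in the inflorescence, and 1788 bp in both leaf libraries. The 6 H3K27me3 libraries other than leaf listed no island within 1 kb of ARF6. In leaf an H3K27me3 island lay at the opposite end of the gene, on chromosome 1 from 10683201 to 10685000 with 856 reads and from 10683401 to 10685000 with 1362 reads. It stayed outside the body and entered the 1 kb flank by 179 bp. The authors' fold was 9.526 and 4.965, at the 99.7 and 87.5 percentiles of those libraries. Neither leaf island touched another protein-coding gene, and other kinds of gene were not checked.

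ARF7, an activator that acts with ARF19 in tropic growth and lateral roots, was the ARF gene with the lowest H3K4me3 per kb of body among those marked in all libraries. Its body level was 57.23 and 67.8 RPM in apex t0, 72.55 and 66.77 RPM in apex t2, 70.41 and 71.83 RPM in the inflorescence, and 78.14 and 77.45 RPM in leaf. Leaf was higher than the other stages by a small margin without overlap. The difference in apex t0 against leaf was -0.32 ± 0.11 (limma, adjusted p = 0.158). AT5G20720 overlaps the ARF7 body and AT1G19860 the MP body, but no island in either body touched the overlapping gene. The H3K4me3 islands that touched AT5G20720 lay in the ARF7 flank, outside its body.

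ARF8 varied little. It held 77.59 and 87.96 RPM in apex t0, 92.42 and 89.26 RPM in apex t2, 81.8 and 94.01 RPM in the inflorescence, and 70.54 and 78.38 RPM in leaf. The ranges of apex t0 and leaf overlapped, and the difference was 0.15 ± 0.13 (limma, adjusted p = 0.527). An H3K27me3 island that overlaps the neighbouring AT5G37030 reached the ARF8 flank in 3 of 8 libraries, and ARF7 had none within 1 kb in any.

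**Figure D2:**
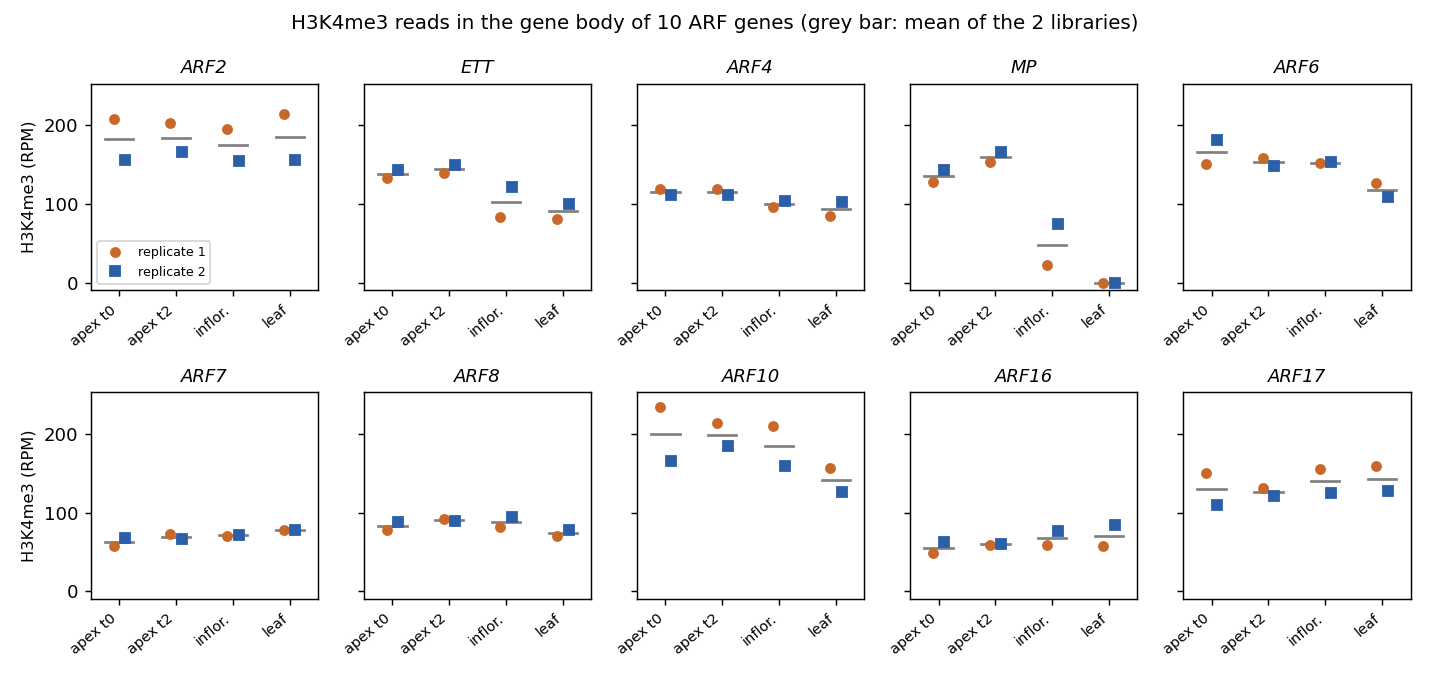
H3K4me3 level in the gene body (RPM, linear axis) of the 10 ARF genes in apex t0, apex t2, inflorescence and leaf; orange circles are replicate 1, blue squares replicate 2, and grey bars the mean of both. MP goes without an island in leaf, while the other 9 genes stay between 48.27 and 234.1 RPM in all libraries.

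Among the repressing ARFs that TAS3 siRNAs target, ETT, a polarity and gynoecium regulator, had the widest spread. It held 133.2 and 143.2 RPM of H3K4me3 in apex t0, 139.8 and 150.1 RPM in apex t2, 83.31 and 121.6 RPM in the inflorescence, and 81.41 and 99.81 RPM in leaf. The apices lay above inflorescence and leaf without overlap, and inflorescence and leaf overlapped. The difference was 0.61 ± 0.21 in apex t0 against leaf (limma, adjusted p = 0.152) and -0.52 ± 0.21 in the inflorescence against apex t2 (adjusted p = 0.692).

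ETT passed the threshold in apex t0 against leaf when the replicate number entered the fit as a block (limma, adjusted p = 0.041). Per the labels' protocols, the number marks a shared sonication, antibody lot, library kit and sequencer, so same-numbered libraries are paired. ETT islands covered 2195 bp of the body in both apex t0 libraries, 2000 and 2195 bp in apex t2, 1600 and 1795 bp in the inflorescence, and 1378 and 1573 bp in leaf. These lengths, and the levels above, include 195 bp at the end of a separate island that overlaps the neighbouring AT2G33855. That piece lay in the body in both apex t0 libraries and, in the other stages, in replicate 2 alone. With 1 kb on either side counted in and no block, the ETT difference in apex t0 against leaf was 0.31 ± 0.09 (limma, adjusted p = 0.1). Leaf replicate 1 alone listed an H3K27me3 island within 1 kb of ETT, 4000 bp long and spread over 3 neighbouring genes.

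ARF4, which acts with ETT in abaxial identity, held 118.4 and 110.8 RPM in apex t0, 118.6 and 111.1 RPM in apex t2, 95.77 and 104.3 RPM in the inflorescence, and 84.77 and 102.6 RPM in leaf. The apices were higher than the other stages without overlap, but the difference of 0.29 ± 0.14 in apex t0 against leaf did not pass (limma, adjusted p = 0.27). ARF4 had no H3K27me3 island in the body or within 1 kb in any library. ARF2, a repressor of organ growth, was the steadiest: its stage means spanned 0.07 on the log2 scale, and its replicates differed by up to 0.46. It held 208.2 and 155.6 RPM in apex t0, against 214.5 and 155.7 RPM in leaf. An H3K27me3 island that overlaps the neighbouring AT5G62020 reached 195 bp into the ARF2 flank in 7 of 8 libraries.

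Of the miR160 targets, ARF10 differed most between stages. It held 234.1 and 166 RPM of H3K4me3 in apex t0, 213.9 and 184.2 RPM in apex t2, 210.7 and 159.6 RPM in the inflorescence, and 156.8 and 126.1 RPM in leaf. Within each replicate number leaf was the lowest stage, and across replicates leaf lay below the other 6 libraries. The difference in apex t0 against leaf was 0.49 ± 0.25 (limma, adjusted p = 0.311), and with the replicate block it was 0.49 ± 0.10 (adjusted p = 0.0332).

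In ARF10 the covered length differed between stages. Islands covered 2600 bp of the body in all 4 apex libraries, 2200 bp in both inflorescence libraries and 1800 bp in both leaf libraries. Per kb of covered body the reads were alike, at 90.03 and 63.85 RPM per kb in apex t0 against 87.09 and 70.06 RPM per kb in leaf. No H3K27me3 island lay within 1 kb of ARF10 in any library.

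ARF16 and ARF17, the other repressors under miR160, showed no stage difference past the threshold. ARF16, which acts with ARF10 in the root cap, held 48.27 and 63.12 RPM in apex t0, 59.61 and 60.64 RPM in apex t2, 58.53 and 77.06 RPM in the inflorescence, and 57.19 and 84.39 RPM in leaf, and apex t0 against leaf gave -0.33 ± 0.24 (limma, adjusted p = 0.464). Its leaf replicates lay farther apart than the stage means. ARF17 held 150.9 and 109.7 RPM in apex t0, 131.4 and 121.8 RPM in apex t2, 155.6 and 125.1 RPM in the inflorescence, and 159.3 and 127.3 RPM in leaf, with -0.15 ± 0.22 in apex t0 against leaf (adjusted p = 0.744). ARF16 had 1 flank island of H3K27me3, in inflorescence replicate 2, and ARF17 had none.

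The replicate number moved some of these genes as much as the stage did. ARF2, ARF10 and ARF17 were higher in replicate 1 in 4 of 4 stages, and ETT and ARF16 were higher in replicate 2 in 4 of 4. The ETT order rests in part on the end of the island over AT2G33855. With 1 kb on either side counted in, ETT in leaf stood at 150.2 RPM in replicate 1 and 143.2 RPM in replicate 2. In the other stages replicate 2 stayed the higher, as in apex t0 at 178 and 180.1 RPM.

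Per kb of gene body, ARF10 had the highest mean H3K4me3 in apex t0, at 65.2 RPM per kb. It was followed by ARF17 at 37.9, ETT at 36.6, ARF2 at 34.9, ARF6 at 32.1, MP at 28.6, ARF4 at 25.3, ARF16 at 16.9, ARF8 at 16.6 and ARF7 at 10.9 RPM per kb. Both ARF10 libraries lay above every other ARF gene and both ARF7 libraries below, while the neighbours from ARF17 to MP, and ARF16 and ARF8, overlapped. ARF10 islands covered 84.7% of its body in apex t0, against 20.6% for ARF7, and per kb of covered length the 9 genes other than MP ranged from 41.83 to 113.8 RPM per kb over all libraries. The ARF10 body is 3069 bp and the ARF7 body 5735 bp, so body length enters this order. Per kb of covered length in apex t0 the mean was 81.4 for ARF17 and 76.9 for ARF10. It was 53.0 for ARF7, 48.3 for ARF16 and 47.3 for MP. The replicates overlapped within each of these 2 groups.

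In covered length, 5 of 10 ARF genes (ETT, MP, ARF6, ARF8 and ARF10) had longer H3K4me3 in both apex t0 libraries than in both leaf libraries, and 0 had shorter. Over all tested genes 16.2% were longer and 9.53% shorter in this sense. The same 5 genes were longer in both inflorescence libraries than in both leaf libraries, where 7.18% of genes were longer and 9.17% shorter. The leaf libraries are shared by the 2 comparisons. MP had no island in leaf and was tested through the other stages, so it could not be shorter in either comparison. In the inflorescence against apex t2, ETT, MP, ARF6 and ARF10 were shorter (13.5% of genes) and ARF8 and ARF16 longer (5.13% of genes). In apex t2 against apex t0, ARF8 was shorter, at 1200 bp against 1348 bp in both libraries of each stage. It was the only ARF gene that was shorter there, and 0 were longer (3.54% of genes shorter, 1.36% longer). Island ends move in steps of 200 bp and follow depth as well as enrichment, and the part of depth was not tested.

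**Figure D3:**
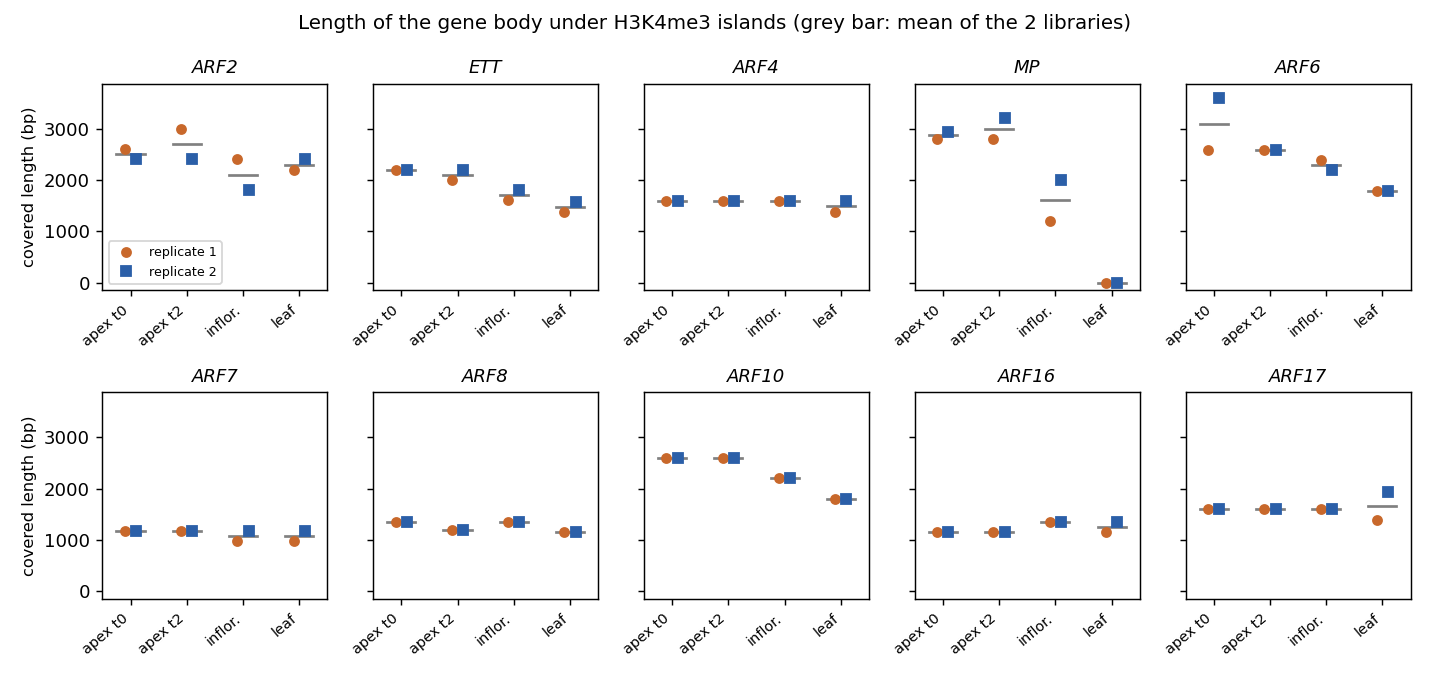
Length of the gene body under H3K4me3 islands (bp) for the 10 ARF genes in apex t0, apex t2, inflorescence and leaf; orange circles are replicate 1, blue squares replicate 2, grey bars the mean of both. ARF10 has 2600 bp covered in the apices, 2200 bp in the inflorescence and 1800 bp in leaf, with equal values in both replicates, and ARF7, ARF8 and ARF16 stay between 979 and 1354 bp.

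No ARF gene passed the threshold between apex t0 and apex t2, 2 days after dexamethasone. In apex t2 against apex t0, 0 of 10 ARF genes were called for H3K4me3 by limma, the largest difference among the 9 genes other than MP was 0.16 ± 0.11 (ARF7), and 0 of the 10 had an unadjusted p below 0.05. No gene of the genome was called either (0.0%), with 155 at an unadjusted p below 0.05. Floral organ identity genes carried H3K4me3 in both libraries in 0 of 6 cases in apex t0 and 4 in apex t2. Of the 5 tested, 0 were called. The test takes its spread from all 8 libraries, and the lack of calls here does not show a lack of change. In H3K27me3 the ARF genes had no body island in either apex stage.

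The median log2 difference of the 10 ARF genes in H3K4me3 was 0.22 in apex t0 against leaf, where the 17588 tested genes had a median of -0.01. It was 0.05 in apex t2 against apex t0, -0.06 in the inflorescence against apex t2 and 0.13 in the inflorescence against leaf, with all genes at 0, 0 and 0.003 in the same order.

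**Figure D4:**
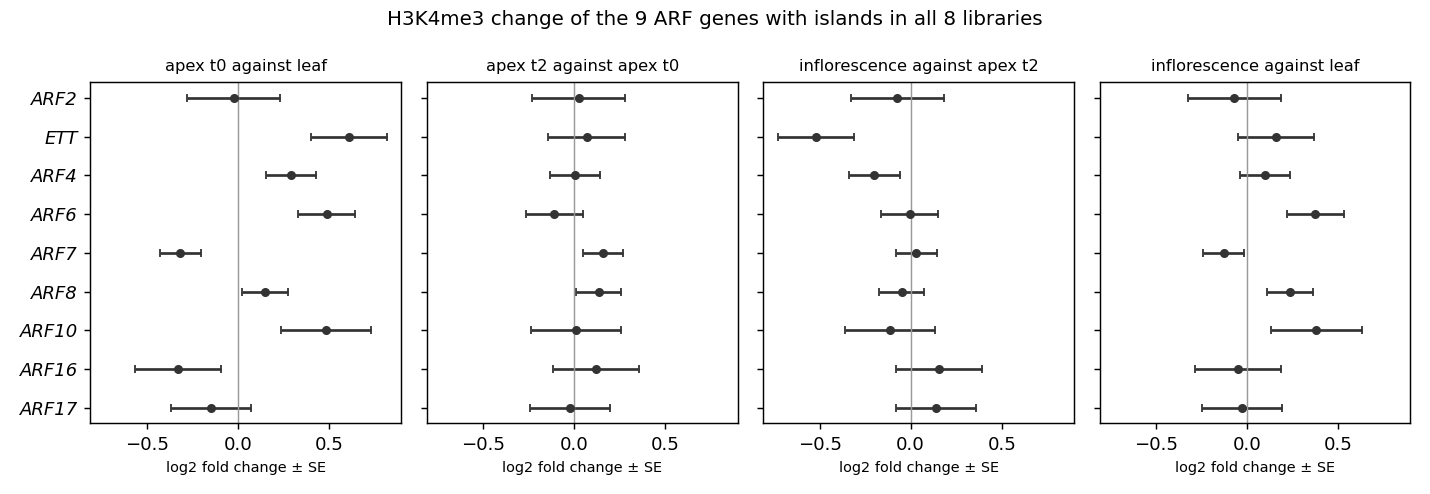
Log2 fold change of H3K4me3 (points) with its standard error (bars) for the 9 ARF genes with islands in all 8 libraries, in the 4 comparisons; positive values are higher in the stage named first. ETT, ARF6 and ARF10 lie highest in apex t0 against leaf, at 0.61, 0.49 and 0.49, and all 9 genes lie within 0.16 of zero in apex t2 against apex t0.

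The rest of the ARF family split by presence of the mark. Of 13 further ARF genes, 5 carried H3K4me3 in all 8 libraries (ARF1, ARF9, ARF11, ARF18 and ARF19) and 8 carried none in any. Those 8 are the closely related copies ARF12 to ARF15 and ARF20 to ARF23, on which reads may map to more than 1 copy, so their lack of islands is uncertain. None of the 13 carried H3K27me3 in both replicates of a stage. Of the 5 tested, 1 was called higher in apex t0 against leaf, where 3.8% of all tested genes were. This was ARF18, which held 127.7 and 139.7 RPM in apex t0, against 72.7 and 81.69 RPM in leaf, a difference of 0.79 ± 0.17 (limma, adjusted p = 0.049). ARF19, the closest counterpart of ARF7, differed by 0.24 ± 0.29 (adjusted p = 0.675).

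All 6 auxin receptors and all 5 TOPLESS corepressors carried H3K4me3 in all 8 libraries and H3K27me3 in none. Of the 6 receptors 1 was called, AFB1, a relative of TIR1, and of the 5 corepressors 0; over all genes 3.8% were called higher in apex t0 against leaf and 2.15% in the inflorescence against leaf. AFB1 held 151 and 156.8 RPM in apex t0 and 156 and 150.6 RPM in the inflorescence, against 54.5 and 66.12 RPM in leaf. The groups did not overlap, with differences of 1.34 ± 0.14 in apex t0 against leaf (limma, adjusted p = 0.00528) and 1.34 ± 0.14 in the inflorescence against leaf (adjusted p = 0.0089).

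The Aux/IAA repressors, which bind the activating ARFs, were divided between the marks. Of 29, 14 carried H3K27me3 in both replicates of apex t0, 15 in apex t2, 12 in the inflorescence and 14 in leaf, and 12 carried it in all 8 libraries. H3K4me3 was found in both replicates on 17 in apex t0, 18 in apex t2, 16 in the inflorescence and 14 in leaf. Of the 19 tested for H3K4me3, 1 was called in apex t0 against leaf, lower, where 4.25% of all tested genes were called lower, so the count is near the background. It was IAA3, at 13.01 and 33.33 RPM in apex t0 against 89.86 and 85.28 RPM in leaf (-2.01 ± 0.40, limma, adjusted p = 0.0328). BDL (IAA12), the partner of MP in the embryo, gave 0.06 ± 0.09 (adjusted p = 0.774).

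Of the 15 Aux/IAA genes tested for H3K27me3, 1 was called higher and 1 lower in apex t0 against leaf (5.57% and 4.0% of all tested genes), 2 lower in the inflorescence against apex t2 (1.68%) and 1 lower in the inflorescence against leaf (1.61%). IAA16 held 70.59 and 80.04 RPM in apex t0 and 66.91 and 75.81 RPM in apex t2, and had no island in the inflorescence or in leaf; it was called higher in apex t0 against leaf (limma, adjusted p = 0.00219) and lower in the inflorescence against apex t2 (adjusted p = 0.00669). It passed the filter through the apex stages alone, which fixed these directions. IAA15 held 17.21 and 15.41 RPM in apex t0 against 100.9 and 93.6 RPM in leaf (-2.51 ± 0.32, adjusted p = 0.00551). IAA5 had no body island in the inflorescence and was called lower there than in apex t2 (adjusted p = 0.0138) and than in leaf (adjusted p = 0.00521), directions that the filter likewise fixed.

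Counting any overlap with an island, 6 of the 12 small RNA loci that act on the ARF genes lay under H3K27me3 in all 8 libraries, against 0 of the 10 ARF genes and 22.0% of all protein-coding genes by the same rule. The 6 loci were MIR160A, MIR160B, MIR167C, MIR167D, TAS3A and TAS3B. MIR167A and MIR390B did so in 7 of 8 libraries and MIR390A in 6 of 8. TAS3C had H3K27me3 in both leaf libraries and in no other, MIR160C had it in 1 leaf library, and MIR167B had none. MIR160A carried H3K4me3 in all 8 libraries too. MIR167B had H3K4me3 in the 4 apex libraries and in no other, whereas MIR167D had it in both leaf libraries and in no other. These loci are short, so an island over one may belong to a neighbour, and the difference in presence was not tested.

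**Figure D5:**
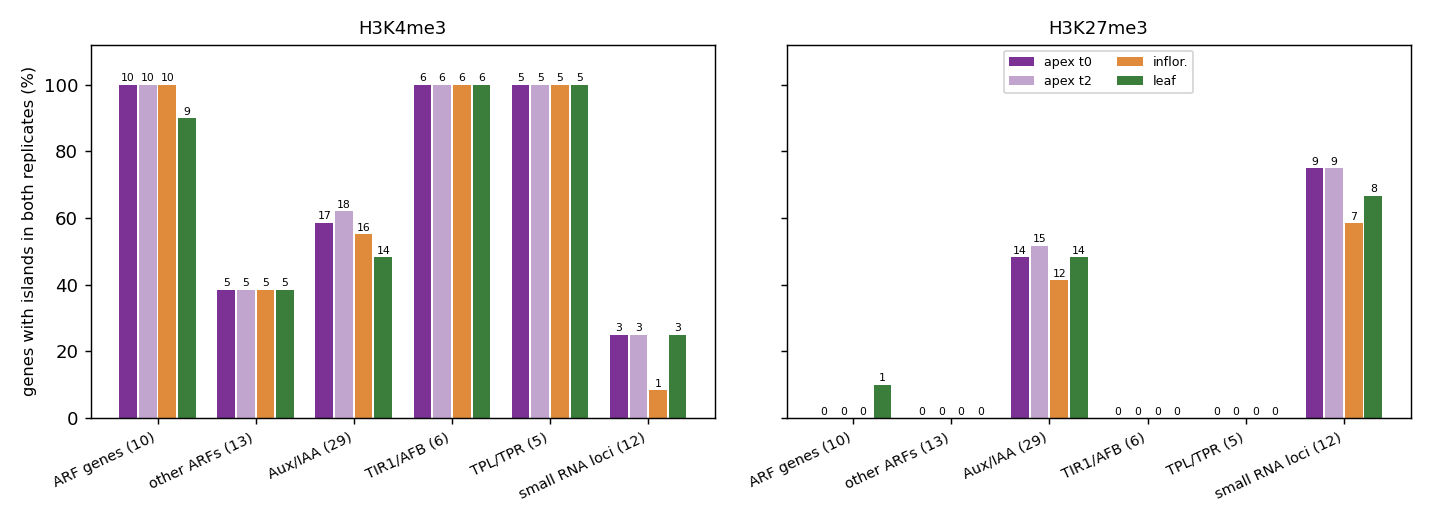
Share of genes (%) with islands in both replicates of apex t0, apex t2, inflorescence and leaf, for H3K4me3 and H3K27me3, by class of the auxin pathway, with the class size in brackets and the number of genes above each bar; small RNA loci count with any overlap, the others with at least 200 bp. H3K27me3 is at 0 or 1 gene for the ARF genes, other ARFs, receptors and corepressors, at 12 to 15 of 29 for Aux/IAA genes and at 7 to 9 of 12 for the small RNA loci.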

How the data were processed

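The deposited values were per-library island tables with columns for position, reads in ChIP and in control, fold, and p-values before and after adjustment. The island caller SICER 1.1, the aligner BWA 0.6.2-r126 and the build TAIR10 are named in the submitters' processing notes. Island settings are not given in the sources used here. The 6 input samples were not used here.

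Genes came from a RefSeq table of another assembly name, whose offset to the islands was best near zero in 116 of 116 bins of 1 Mb. Island positions are printed as deposited, 1-based. Reads were assigned by the share of an island in the gene body, scaled by trimmed means and set as log2(RPM + 1). The test took genes with at least 200 bp covered in both replicates of 1 or more stages (17588 H3K4me3, 8623 H3K27me3) and used limma 3.58.1 in R 4.3.3 (trend, robust, stage as the only term, 8 libraries, 4 residual degrees of freedom, two-sided, Benjamini-Hochberg over those genes, threshold 0.05). With values as a sum over islands called per library, covered lengths are given beside them. The fit was tested on simulated data with normal noise and known shifts. These data held no stage without islands, so they do not bear on the MP calls against leaf.

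Same-numbered libraries share sonication, antibody lot, kit and sequencer, per the labels' protocols, and their deviations correlated at 0.155 to 0.449 in each pair. Within a mark, leaf and inflorescence libraries of the same replicate number shared a control, as did apex t0 and apex t2 libraries of the same number. All 10 ARF genes are named. Other pathway genes are named where they passed the threshold or are the closest counterpart of an ARF gene. Members and lists were chosen with earlier results of these data known.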

Additional observations from a re-analysis of the deposited data

How the results depend on the processing

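With the replicate block, which pairs same-numbered libraries, 3 ARF genes (MP, ETT and ARF10) were called for H3K4me3 in apex t0 against leaf in place of 1, and the block changed no other count of ARF genes called. With islands of fold 2 or more, 1 ARF gene (MP) was called in the inflorescence against apex t2 in place of 0, and 0 in the inflorescence against leaf in place of 1. Fitting only the 4 libraries compared gave 0 in the inflorescence against leaf for either mark. Leaving out 1 library gave 0 to 1 there for H3K4me3, with 0 without apex t2 replicate 1 or 2. With 1 kb on either side counted in, H3K27me3 called 1 in the inflorescence against apex t2 and 0 in the inflorescence against leaf. In all, 384 of 392 single-gene results kept their side of the threshold when all libraries were kept or subset by comparison, and no called result reversed. Most of these results were not called to begin with, so this share says little about the called ones. Of the called ones 4 were lost, all of them MP in the inflorescence against leaf, and 4 results were called only under an alternative. H3K27me3 with 600 bp of overlap gave no value, since MP was not tested. Counts over all genes moved more: for H3K4me3 in apex t0 against leaf 1416 were called, 2390 with the replicate block and 601 to 3089 with 1 library left out. In the inflorescence against apex t2, 205 genes were called for H3K4me3, against 126 to 130 with the flanks, the replicate block or a pseudocount of 4, 21 with any marked gene tested, and 0 to 2 with 1 library left out. For H3K27me3 there, 282 were called, 57 with any marked gene tested and 0 to 971 with 1 library left out. In the inflorescence against leaf, 717 (H3K4me3) and 443 (H3K27me3) were called, 0 for either with only the 4 libraries, and 69 to 1829 and 382 to 1282 with 1 library left out. The H3K27me3 count in apex t0 against leaf was 825, and 617 to 1696 with 1 library left out. In apex t2 against apex t0, up to 22 genes were called under an alternative, in place of 0 for either mark. The causes were not tested. With 2 libraries a stage, and replicate 1 the shallower, a gene without an island may still hold the mark at a level these tables do not list.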
